A study of Homo sapiens with 6 samples.

Results

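The RB-E2F axis and the S-phase cyclins were represented by 7 of the 236 genes counted in NCM-460, an epithelial cell line derived from normal human colon: the transcription factors E2F1 and E2F3, their dimer partner TFDP1, the inhibitor RB1, the cyclins CCNE1 and CCNA2 and the kinase CDK2. They were chosen by name, with earlier results of these data known. Transcripts were counted with a NanoString nCounter assay, which hybridises barcoded probes to RNA and counts them singly without amplification. By the sample labels, 3 of the 6 samples held cells given a control siRNA by transfection and 3 held cells given pri-miR-135b, the unprocessed precursor of miR-135b, by the same means (called control and miR-135b samples here). The series' design text instead speaks of scrambled and miR-135b oligos. The form of the RNA that the miR-135b samples received, and whether the groups differed in the kind of RNA as well as in its sequence, are therefore unsettled. Whether replicates were separate cultures is not stated, so each p-value reflects a spread that may be purely technical. The comparison asks what happens to these transcripts when miR-135b, which is often raised in colorectal tumours, is supplied to cells of normal origin.

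The main mature product known from this precursor is miR-135b-5p. Its RefSeq sequence (GRCh38.p14, chr1:205448361-205448383, minus strand) is shown because the labels name miR-135b as the treatment, with the seed, bases 2 to 8 from the 5′ end, in capitals.
miR-135b-5p: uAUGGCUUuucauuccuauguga
miR-135b itself was not analysed here, so its level in the transfected cells was not checked.

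In the textbook account of the G1 to S transition, RB1 protein binds E2F factors and holds their target genes silent. Cyclin D kinases and then cyclin E with CDK2 phosphorylate RB1, the freed E2F-DP dimers switch on genes for DNA synthesis, and these include the genes for E2F1 and cyclin E themselves. Cyclin A with CDK2 then acts through S phase. Loss of this restraint is common in tumours, and colonic epithelium renews through continuous division of crypt cells.

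The samples held between 250792 and 392207 counts over the 236 genes. Background, the mean of a sample's 8 negative control probes plus 2 SD, lay between 14.7 and 26.1 counts, and 174 genes exceeded it in at least 3 samples and were tested. All 7 members exceeded it in all 6 samples, with CDK2 in its weakest sample at 11.9 times background, so none was lost to the filter. Of 4 epithelial markers among the genes, E-cadherin (CDH1), ERBB2 and ERBB3 were well above background and MUC1 was not tested. All 3 tested were called in edgeR, where 43.1% of all tested genes were called. CDH1 was 1.22-fold higher (edgeR adjusted p = 4.92e-05), ERBB3 1.42-fold lower (2.55e-07) and ERBB2 1.14-fold lower (0.0234). Their part in the results below was not tested. Of 10 blood cell markers 7 were above background in no sample, and the list summed to between 113 and 125.4 normalised counts in control and between 102 and 118.2 in miR-135b samples. Of 7 fibroblast and endothelial markers 4 were above background in no sample, with sums of 73.2 to 113.9 and 88.1 to 112.2. No marker of the blood cell list or of the fibroblast and endothelial list was called different between the groups, and no marker specific to colon was on the lists.

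Across the axis, E2F1 and CCNE1 fell, E2F3 rose, and RB1 and CCNA2 did not pass the test. E2F1 was 1.54-fold lower and CCNE1 1.43-fold lower in miR-135b samples, while E2F3 was 1.41-fold higher. TFDP1 was called lower by 1.07-fold in the main fit, a call that most alternative fits did not keep. CDK2 was 1.14-fold lower in the means without passing the threshold. In edgeR's quasi-likelihood test, with a Benjamini-Hochberg adjusted p under 0.05 over the 174 tested genes, 4 of the 7 members were called, 1 higher and 3 lower. The background is high, with 43.1% of tested genes called, 17.8% higher and 25.3% lower. Of the calls that each fit made, 41.3% were higher with TMM scaling and 55.2% with reference gene scaling. The count of members called ranged from 3 to 5 over 17 alternative fits. The members' median log2 fold change was -0.09 and that of all tested genes was -0.04. The RNA came from bulk cultures, so fewer cells in the phase that carries a transcript and less RNA per cell cannot be told apart.

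**Figure D1:**
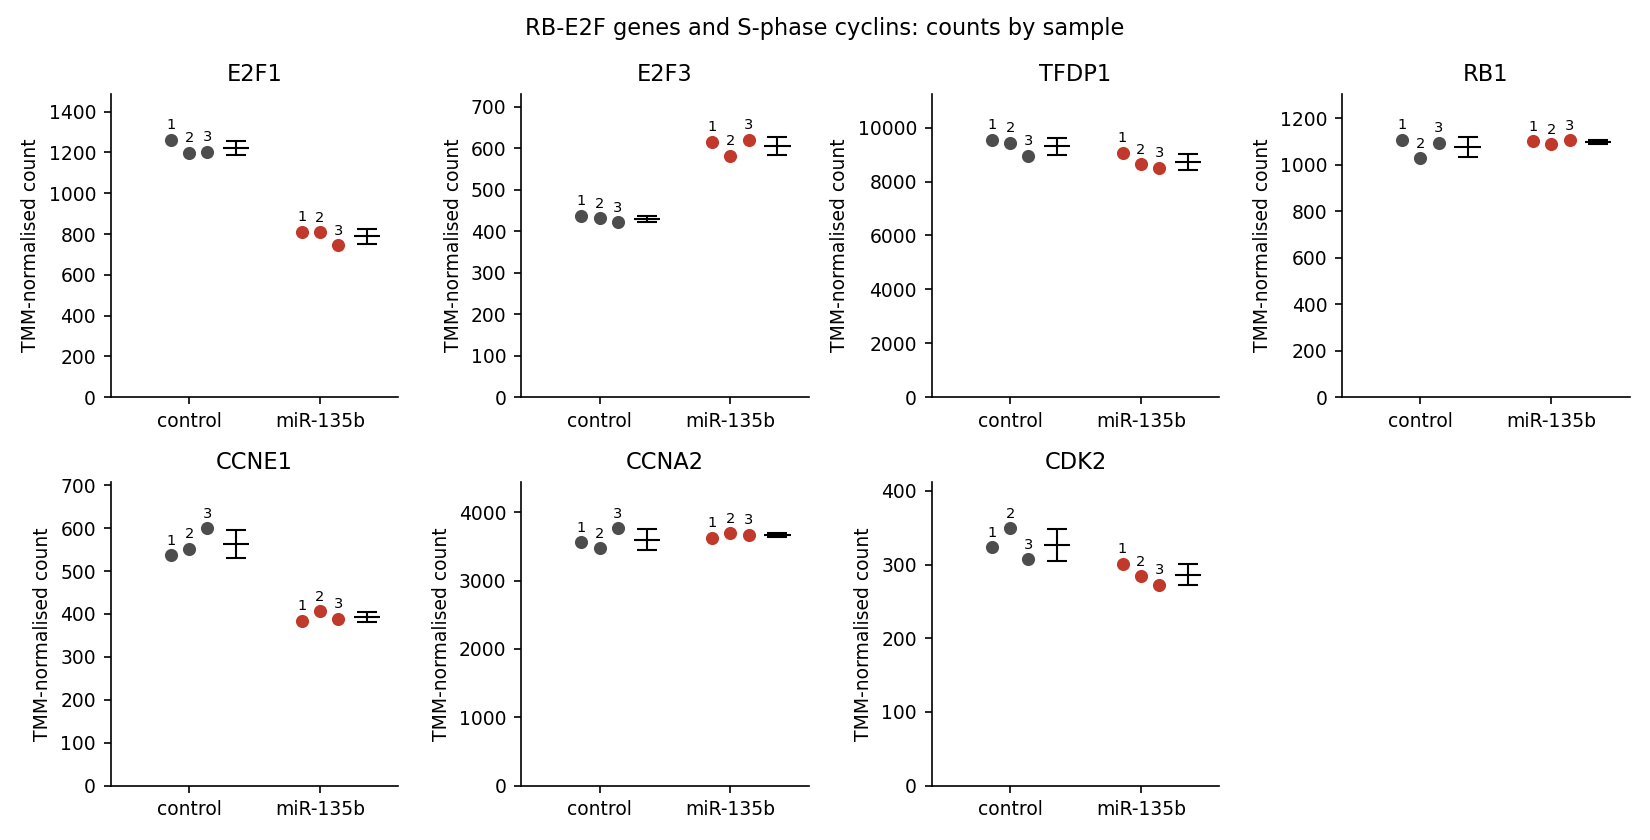
TMM-normalised counts (y axis, from 0, a separate scale for each gene) of the 7 members in the 3 control samples (grey) and the 3 miR-135b samples (red). Digits give the replicate number, and bars beside the points give the mean and SD (n = 3). E2F1 and CCNE1 lie lower and E2F3 higher in every miR-135b sample, and the groups overlap for TFDP1, RB1 and CCNA2.

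The E2F factors came first, since they carry the output of the pathway. E2F1, which activates S-phase genes, had TMM-normalised counts of 1262, 1199 and 1204.5 in the control replicates, in order, and of 811, 809 and 746 in the miR-135b replicates. Every miR-135b sample lay below every control sample, with a wide gap between the groups. The group means were 1222 ± 34.8 and 788.7 ± 37.3 (SD, n = 3), which gives a log2 fold change of -0.63 (SE 0.05, 95% interval -0.73 to -0.52, edgeR adjusted p = 1.49e-09). Only 2 of the 174 tested genes had a more negative log2 fold change. The spread between replicates, a coefficient of variation (CV) of 2.85% in control and 4.73% in miR-135b samples, was near the 2.91% and 3.63% that counting error alone gives. Across the 6 samples the gene whose log2 counts ran most like E2F1 was ITGB1, the integrin beta-1 chain (Pearson r = 0.99). This likeness is a description only, and genes that differ between the groups in the same direction share it.

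E2F3 encodes a second activating E2F. The locus makes 2 products, E2F3a and E2F3b, from separate promoters, and the counts carry no information on which product was counted. Its normalised counts were 437, 432 and 422 in control samples, against 616, 582 and 621 with miR-135b. The groups were again fully separate, in the direction opposite to E2F1. The means were 430.3 ± 7.74 and 606.2 ± 21 (SD, n = 3), which gives a log2 fold change of 0.49 (SE 0.06, 95% interval 0.36 to 0.62, edgeR adjusted p = 1e-06). Replicate spread, at a CV of 1.80% and 3.46%, was below the counting error of 4.91% and 4.13%. The gene with the most similar course over the 6 samples was BCL2L1, an anti-apoptotic gene (r = 0.99).

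The ratio of the raw counts of the E2F genes within each sample needs no scaling between samples. It restates their opposite changes above, from the same counts, and shows only that the divergence does not depend on scaling. Such a ratio does not show which of the 2 genes moved. The ratio of E2F3 to E2F1 was 0.346, 0.360 and 0.350 in the control replicates and 0.759, 0.720 and 0.832 in miR-135b replicates. All 3 miR-135b ratios were above all 3 control ratios. The log2 ratio differed by 1.13 between the groups, a 2.18-fold rise of the ratio, and leaving out single samples moved this difference only between 1.07 and 1.17. An exact two-sided permutation test gave p = 0.1, the smallest value that 3 against 3 samples allow (adjusted p = 0.12 over 6 ratios). Probes differ in efficiency, so the level of such a ratio does not give the relative abundance of the transcripts.

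Promoter sequence was examined because E2F factors bind their own promoters and those of the cyclin E and cyclin A genes. The 250 bases before the annotated start of E2F1, E2F3 and CCNE1, the members with the clearest changes, are shown 5′ to 3′ on the gene's strand, from RefSeq (GRCh38.p14). Capitals mark matches, on either strand, to 4 spellings of the E2F core motif, namely the spelling TTTCCCG, the spelling TTTCGCG, the spelling TTTGCCG and the spelling TTTGGCG. The entries are E2F1 at chr20:33686386-33686635 (minus strand), the upstream of 2 E2F3 entries at chr6:20401629-20401878 (plus strand) and CCNE1 at chr19:29811741-29811990 (plus strand).
E2F1: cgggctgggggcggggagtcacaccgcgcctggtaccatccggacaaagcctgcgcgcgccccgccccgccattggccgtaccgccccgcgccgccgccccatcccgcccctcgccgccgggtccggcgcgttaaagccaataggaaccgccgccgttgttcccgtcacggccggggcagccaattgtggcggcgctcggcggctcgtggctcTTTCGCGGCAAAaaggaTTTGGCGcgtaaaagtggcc
E2F3: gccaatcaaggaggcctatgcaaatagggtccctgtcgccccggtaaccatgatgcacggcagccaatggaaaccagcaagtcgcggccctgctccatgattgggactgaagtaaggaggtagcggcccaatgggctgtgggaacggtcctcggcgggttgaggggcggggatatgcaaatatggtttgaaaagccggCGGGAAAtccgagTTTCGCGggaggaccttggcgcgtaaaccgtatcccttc
CCNE1: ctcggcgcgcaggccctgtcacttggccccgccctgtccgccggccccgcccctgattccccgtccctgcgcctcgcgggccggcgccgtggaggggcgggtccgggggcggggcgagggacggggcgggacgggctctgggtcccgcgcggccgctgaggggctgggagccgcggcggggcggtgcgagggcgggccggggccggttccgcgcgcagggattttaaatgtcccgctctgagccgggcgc
The E2F1 window held 3 matches, beginning 37, 32 and 20 bases before the start. The first 2 overlap, and the middle one, TTTGCCG, reads on the opposite strand. The E2F3 window held 2 matches, at 52 and 39 bases before the start, the farther of them, TTTCCCG, on the opposite strand. The CCNE1 window and the downstream E2F3 entry held none, and neither did that of CCNA2, while that of TFDP1, whose entry is not at the gene's outermost start, held 1. RB1 had only an entry away from the gene's outermost start, which held none, and CDK2 had no entry, so their main promoters were not examined. Of all 35116 promoter windows of this length, 7.33% held at least 1 match and 0.496% held 2 or more. E2F1, which fell, and E2F3, which rose, both held matches, and CCNE1, which fell, held none. A match is a stretch of letters and not a measured binding site, and a window without one says nothing about binding elsewhere.

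TFDP1 encodes DP1, the partner with which E2F factors bind DNA. Its normalised counts were 9548, 9440 and 8953 in control samples, against 9065, 8635 and 8507 with miR-135b. The groups overlapped, since control replicate 3 lay below miR-135b replicate 1. The means were 9314 ± 317 and 8736 ± 292 (SD, n = 3), and the log2 fold change was -0.09 (SE 0.03, 95% interval -0.16 to -0.02, edgeR adjusted p = 0.0265). The replicate CV was 3.41% and 3.35% where counting error gives 1.06% and 1.09%, so depth did not limit this gene. The call was lost in 11 of 17 alternative fits, all of them with the same direction. Among them, scaling by reference genes gave an adjusted p of 0.223 and scaling by spikes 0.885 (edgeR). TFDP1 also missed the threshold when either of control replicates 1 (edgeR adjusted p = 0.144) and 2 (0.0743) or of miR-135b replicates 2 (0.0742) and 3 (0.136) was left out. Over all 17 the adjusted p ranged from 0.000893 to 0.885. Relative to E2F1 within each sample, TFDP1 stood at 7.57, 7.87 and 7.43 in control samples, against 11.2, 10.7 and 11.4 with miR-135b. These ratios did not overlap, and their log2 difference was 0.54 (exact permutation p = 0.1, adjusted p = 0.12). The change of TFDP1 was small beside that of E2F1, so this ratio mostly restates the fall of E2F1.

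RB1, the pocket protein that restrains E2F, had normalised counts of 1106, 1026 and 1093 in control samples, against 1100, 1086 and 1105 with miR-135b. All 3 miR-135b values lay inside the control range. The log2 fold change was 0.03 (SE 0.05, edgeR adjusted p = 0.631), and its 95% interval corresponds to between 0.952-fold and 1.10-fold of control. Its sign turned, to -0.0045, without control replicate 2, the lowest control sample. The ratio of RB1 to E2F1 was 0.877, 0.855 and 0.908 in control samples, against 1.36, 1.34 and 1.48 with miR-135b. These groups did not overlap, at a log2 difference of 0.66 (exact permutation p = 0.1, adjusted p = 0.12). RB1 itself barely moved, so this ratio restates the fall of E2F1 and adds no result for RB1. In the raw counts RB1 was thus below E2F1 in every control sample and above it in every miR-135b sample, on probes whose efficiencies may differ.

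Among the cyclins and their kinase, cyclin E1 was the one that moved clearly. CCNE1, whose protein activates CDK2 at the end of G1, had normalised counts of 537.6, 552.2 and 599.6 in control samples, against 384, 406 and 389 with miR-135b. Every miR-135b sample lay well below every control sample. The means were 563.1 ± 32.5 and 393.1 ± 11.4 (SD, n = 3), which gives a log2 fold change of -0.51 (SE 0.07, 95% interval -0.65 to -0.37, edgeR adjusted p = 1.39e-06). Its most similar gene over the 6 samples was ITGB1, as for E2F1 (r = 0.98).

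CCNA2, the cyclin of S phase and G2, showed no such fall. Its normalised counts were 3556, 3474 and 3764 in control samples, against 3628, 3692 and 3668 with miR-135b. The miR-135b values all lay inside the control range. The log2 fold change was 0.03 (SE 0.04, edgeR adjusted p = 0.593), with a 95% interval of 0.964-fold to 1.08-fold, so a fall of the size of CCNE1 lies outside it. The ratio of CCNA2 to CCNE1 in the same sample was 6.62, 6.29 and 6.28 in control samples, against 9.44, 9.10 and 9.44 with miR-135b. The groups did not overlap, and the log2 ratio differed by 0.54 (exact permutation p = 0.1, adjusted p = 0.12), with single samples left out by 0.53 to 0.57. CCNA2 itself barely moved, so this ratio restates the fall of CCNE1.

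CDK2, the kinase that both cyclins bind, had the lowest counts of the members. They were 323, 349 and 307 in control samples, against 301, 284 and 273 with miR-135b after normalisation. The groups just failed to overlap, with control replicate 3 and miR-135b replicate 1 close together. The means were 326.5 ± 21.3 and 286.1 ± 14.3 (SD, n = 3), with a log2 fold change of -0.19 (SE 0.08, 95% interval -0.36 to -0.03, edgeR adjusted p = 0.0551), which missed the threshold. The replicate CV of 6.51% and 5.01% was near the counting error of 5.67% and 6.03%. Without control replicate 3 the adjusted p was 0.0291 (edgeR), and over the 17 alternatives it ranged from 0.0291 to 0.656. The ratio of CCNE1 to CDK2 was 1.66, 1.58 and 1.95 in control samples, against 1.28, 1.43 and 1.43 with miR-135b, without overlap (log2 difference -0.33, exact permutation p = 0.1, adjusted p = 0.12). The ratio of CCNA2 to CDK2 ran from 9.95 to 12.3 in control and from 12 to 13.4 in miR-135b samples, and the groups overlapped (log2 difference 0.22, exact permutation p = 0.2, adjusted p = 0.2).

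**Figure D2:**
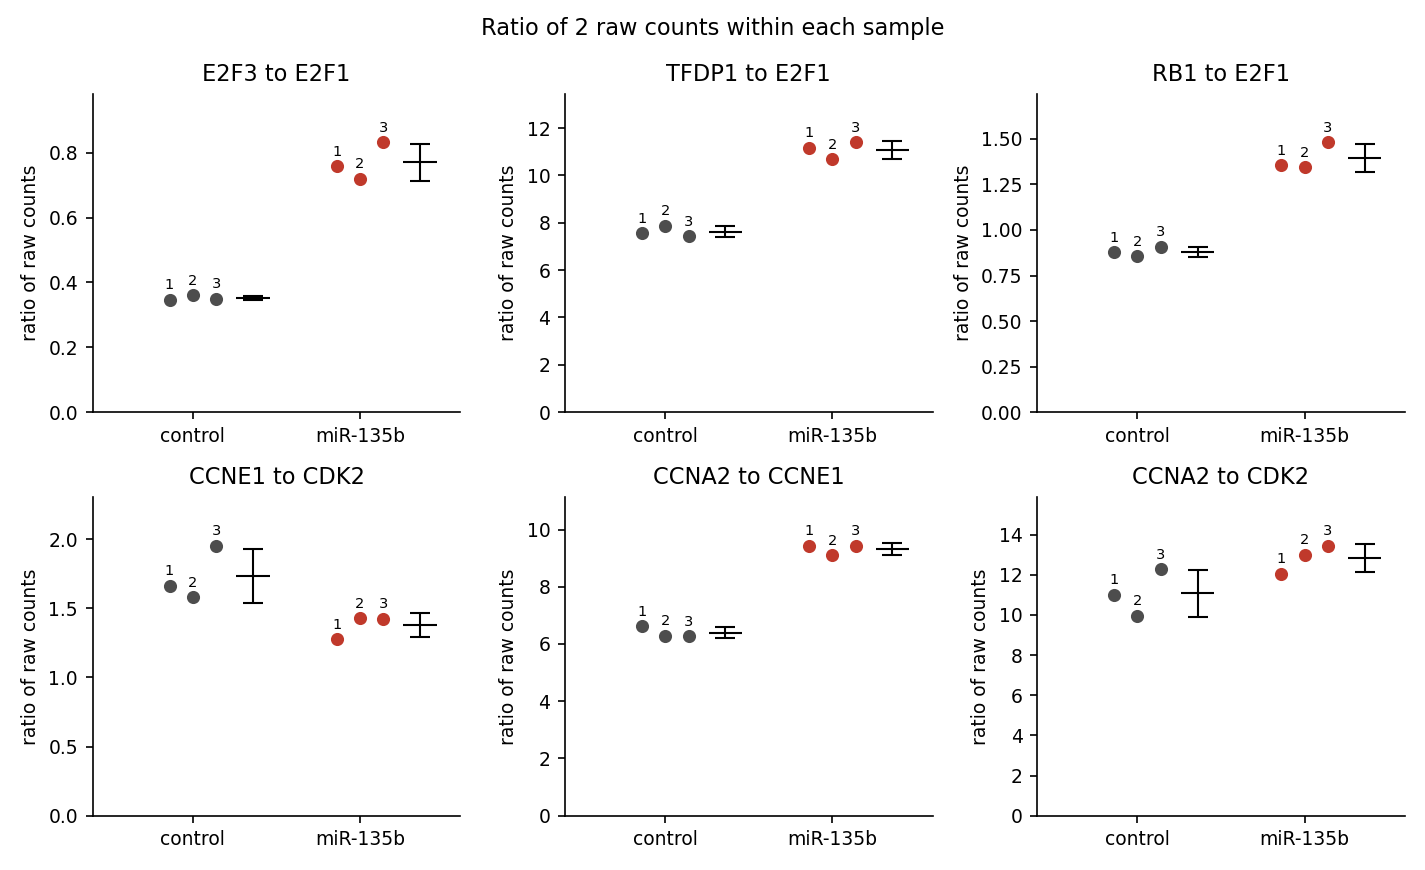
Ratio of the raw counts of 2 members within each sample (y axis, from 0, no unit) for 6 pairs, in control (grey) and miR-135b (red) samples. Digits give replicates and bars the mean and SD (n = 3). The ratios of E2F3, TFDP1 and RB1 to E2F1 and of CCNA2 to CCNE1 are higher in every miR-135b sample, that of CCNE1 to CDK2 is lower, and those of CCNA2 to CDK2 overlap.

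Over the 7 members the groups did not overlap for 4, E2F1, E2F3, CCNE1 and CDK2, where 51.7% of the 174 tested genes did not overlap. TFDP1 was called with overlapping groups and CDK2 was not called with separate ones. The remaining most similar genes over the 6 samples, again as descriptions, were FGFR2 for TFDP1 (r = 0.96), FAT1 for RB1 (r = 0.92), CEBPA for CDK2 (r = 0.99) and EGF for CCNA2 (r = 0.87). EGF lay close to background, with mean counts of 26.9 and 30.4.

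**Figure D3:**
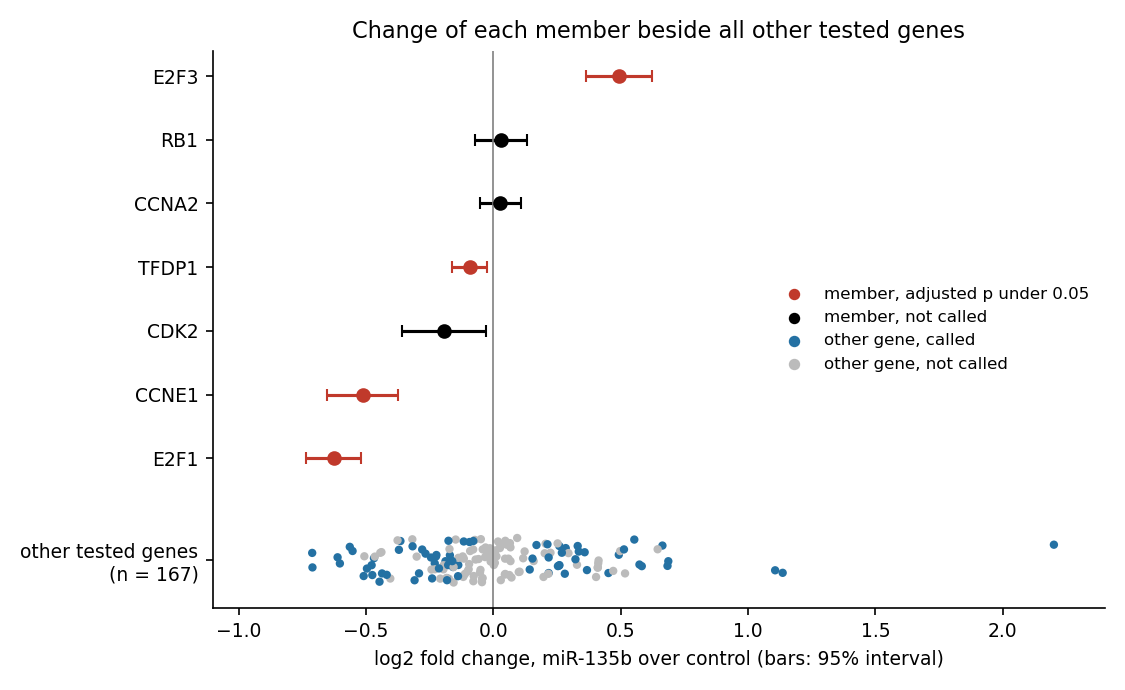
Log2 fold change of each member (x axis, miR-135b over control, bars for the 95% interval), with the other 167 tested genes as points in the bottom row. E2F1 and CCNE1 lie towards the low end of all tested genes and E2F3 on the higher side, while RB1 and CCNA2 lie near 0.

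The other cell cycle genes on the panel were read from lists set around the members, with the 7 members left out of each. Over these lists 33 genes were tested, and 3 rose and 10 fell, which is 39.4% called against 43.1% of all tested genes. Their median log2 fold change was -0.07. Leaving out control replicate 3 left 8 of these 13 calls in number and leaving out miR-135b replicate 2 left 7, the lowest of the single-sample fits. The other E2F genes and the RB relatives RBL1 and RBL2 were not analysed here.

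Upstream of RB1 act the G1 cyclins and kinases. Of 5 tested, CCND1, the cyclin D1 gene, rose 1.10-fold and 4 did not pass, where 43.1% of all tested genes were called. CCND1 went from 928.7 ± 71.7 to 1029 ± 29 normalised counts (SD, n = 3; log2 fold change 0.14, SE 0.06, edgeR adjusted p = 0.0439). CCND1 missed the threshold when control replicate 3 (edgeR adjusted p = 0.155) or either of miR-135b replicates 1 (0.116) and 2 (0.0798) was left out. CDK4, its partner kinase, had 640.3 ± 49.2 and 607.4 ± 39.8 counts (log2 fold change -0.08, edgeR adjusted p = 0.351).

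Of 4 tested CDK inhibitors 1 rose and 1 fell, where 17.8% of all tested genes were called higher and 25.3% lower. CDKN1A, which encodes p21, an inhibitor of CDK2 complexes, rose 1.61-fold, from 89 ± 3.71 to 142.8 ± 2.35 normalised counts (SD, n = 3; log2 fold change 0.68, SE 0.12, edgeR adjusted p = 5.9e-05). CDKN2C, which encodes p18, an inhibitor of the cyclin D kinases and itself a known E2F target, fell 1.29-fold (log2 fold change -0.36, SE 0.12, edgeR adjusted p = 0.0182). CDKN2C missed the threshold when control replicate 2 (edgeR adjusted p = 0.0759) or either of miR-135b replicates 2 (0.0513) and 3 (0.0538) was left out. CDKN2B had 53.5 ± 9.34 and 66.1 ± 7.83 counts (log2 fold change 0.29, edgeR adjusted p = 0.17).

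Downstream, more of the transcripts known as E2F targets were called lower than higher. Calls over all tested genes also leaned lower, with 43.1% called, 17.8% higher and 25.3% lower. Of the 19 targets tested, 0 rose and 7 fell in the edgeR test (at an unadjusted p under 0.05, 1 and 7). These 19 had a median log2 fold change of -0.07, against -0.04 over all tested genes. Whether the targets were called lower more often than other tested genes was not tested. The largest falls were in the transcription factor genes MYB (1.36-fold lower, log2 fold change -0.45, SE 0.08, edgeR adjusted p = 0.000135) and MYC (1.35-fold lower, -0.44, SE 0.04, edgeR adjusted p = 3.28e-09), followed by CDKN2C. The DESeq2 Wald test called 1 higher and 3 lower, and reference gene scaling in edgeR 2 higher and 4 lower. The gene called higher by DESeq2, named after its values were seen, was TOP2A, topoisomerase II alpha (log2 fold change 0.12, DESeq2 adjusted p = 0.0256, against 0.09 and an edgeR adjusted p of 0.0829 in the main fit). MYB and MYC act on entry into the cycle and are not enzymes of DNA synthesis. The other 4 falls, named after their values were seen, were smaller: BLM, a helicase (1.17-fold), RAD54L, a recombination factor (1.16-fold), TYMS, thymidylate synthase (1.13-fold), and PCNA, the replication clamp (1.12-fold). MYC, MYB and TYMS passed whichever single sample was dropped. PCNA missed the threshold when control replicate 2 (edgeR adjusted p = 0.0511), control replicate 3 (0.0868) or the second miR-135b replicate (0.109) was dropped. BLM missed it on dropping control replicates 2 (0.0534) and 3 (0.0881) and miR-135b replicates 1 (0.14) and 2 (0.15), and RAD54L in 5 of the 6 fits that left out a sample, with an adjusted p up to 0.193 without control replicate 3. The list's count of calls was 4 without control replicate 2, 4 without control replicate 3 and 3 without miR-135b replicate 2. MYBL2, a target with high counts, had 5469 ± 113 and 5252 ± 151 (log2 fold change -0.06, edgeR adjusted p = 0.178).

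Of 6 tested G2 and mitosis genes 1 fell, the phosphatase gene CDC25B (1.17-fold lower, log2 fold change -0.23, SE 0.06, edgeR adjusted p = 0.00291). TOP2A, also on this list, was called higher in 7 of 17 alternatives. CDC2, now named CDK1, the kinase of mitotic entry, had 4604 ± 43.8 and 4758 ± 187 counts (log2 fold change 0.05, edgeR adjusted p = 0.29). Of 9 tested other regulators of entry into the cycle 1 rose and 4 fell. Over all tested genes 17.8% were called higher and 25.3% lower, and whether this list or the G2 list departed from these shares was not tested. GADD45A, a stress-response gene, rose 1.41-fold (log2 fold change 0.49, SE 0.08, edgeR adjusted p = 1.53e-05). TGFBR2, the receptor through which TGF-beta holds epithelial cells in G1, fell 1.64-fold (log2 fold change -0.71, SE 0.08, edgeR adjusted p = 2.25e-07), and MYB and MYC fell as above. The 6 reference genes had log2 fold changes between -0.12 and 0.05, and 1 of them was called lower, the glycolytic enzyme gene PGK1 (-0.12, SE 0.03, edgeR adjusted p = 0.000973).

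**Figure D4:**
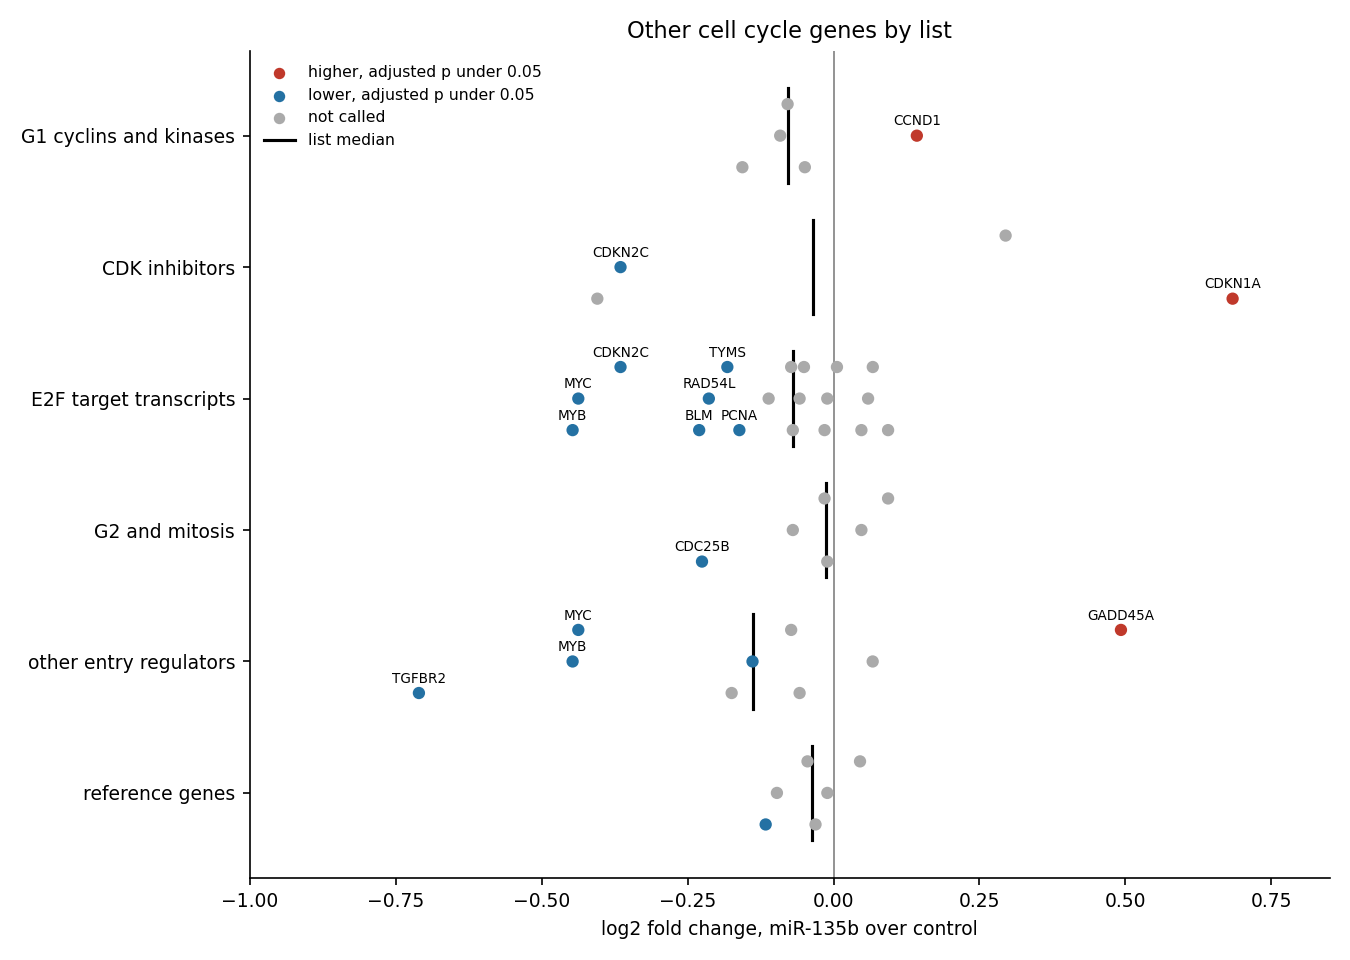
Log2 fold change (x axis, miR-135b over control) of each tested gene in the cell cycle lists and among the reference genes, 1 row per list, with a black line at each list's median. Red points were called higher, blue points lower and grey points were not called. The row of E2F target transcripts has 7 blue points and no red one in this fit, where reference gene scaling called 2 higher and 4 lower, and CDKN1A stands apart to the right.

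**Figure D5:**
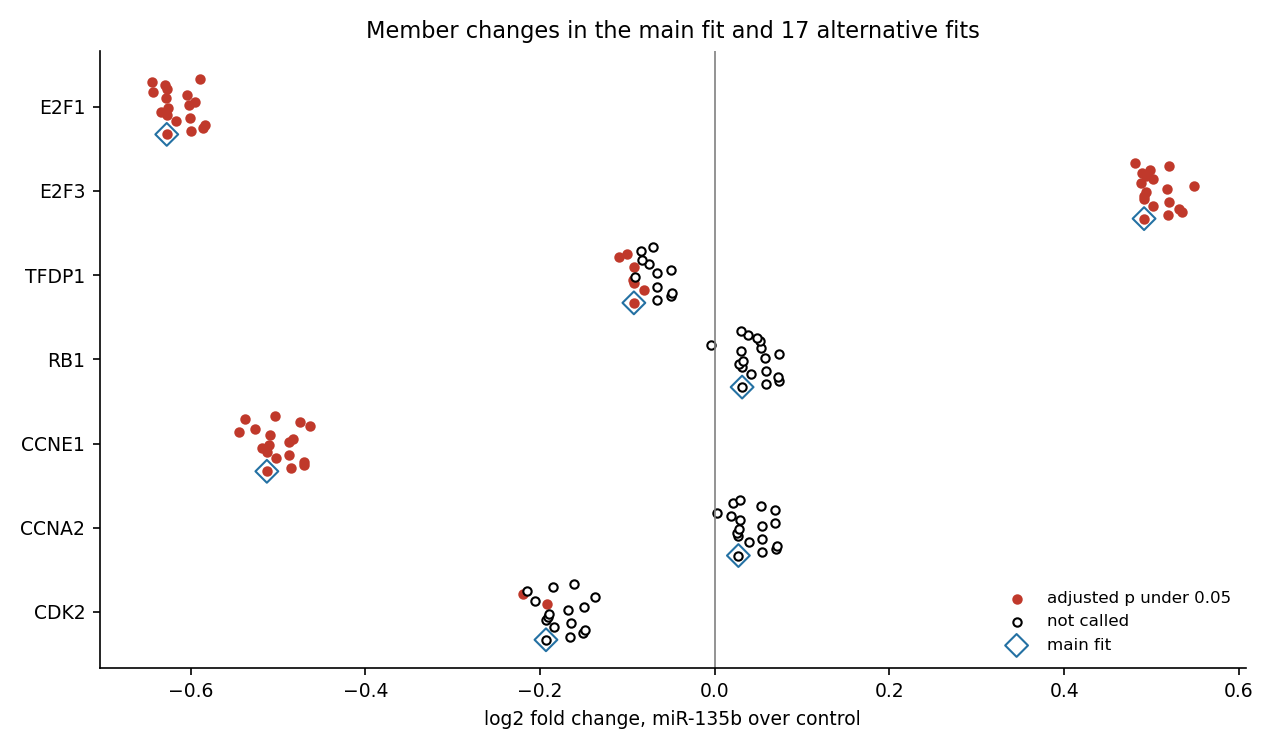
Log2 fold change (x axis) of each member in the main fit (diamond) and in 17 alternative fits (other points), filled red where the adjusted p was under 0.05 and open where not. E2F1, E2F3 and CCNE1 are red throughout, TFDP1 is a mixture, CDK2 is open except in 2 alternatives, and RB1 and CCNA2 are open throughout.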

How the data were processed

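The members and gene lists were chosen with earlier results of these data known. The authors deposited raw counts per probe (6 positive spikes, 8 negative controls, 236 genes), made from Trizol RNA by a core facility with the NanoString protocol, per the labels. No source used here names the counter, its software or a lane correction. A second deposited table holds normalised signal values, which equalled the raw counts times 1 factor per sample (0.826 to 1.29) within 0.02. The basis of those factors was likewise not named. Total counts per sample limit precision as given in the text. Counting error was taken as the inverse square root of the raw count.

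Genes above background (negative control mean plus 2 SD) in at least 3 samples were tested on raw counts with edgeR 4.0.16 in R 4.3.3 (TMM, glmQLFit and glmQLFTest, group as the only term, two-sided, Benjamini-Hochberg over 174 genes, threshold 0.05). SE came from the log2 fold change and F (absolute value over the root of F). The procedure was tested on simulated data. Group values are TMM-normalised counts, mean ± SD. The alternatives used DESeq2 1.42.0 and limma 3.58.1 (pseudocount 1 on the authors' values) besides other scalings, filters, a replicate block and leaving out each sample. A further alternative subtracted background (floor 1), together with reference gene scaling and limma. From each list the text names up to 3 called genes per direction by size and the most abundant gene not called, and for each member the gene with the highest correlation of log2 CPM (prior count 2). Deviations from the group means did not run together in samples of the same number (r = 0.023, -0.13 and 0.13), so numbers were not taken as pairs.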

Additional observations from a re-analysis of the deposited data

How the results depend on the processing

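Of 119 alternative values for the 7 members, 105 kept direction and call. E2F1 (log2 fold change -0.64 to -0.58), E2F3 (0.48 to 0.55) and CCNE1 (-0.54 to -0.46) passed in all 17 alternatives, with adjusted p up to 0.00289, 0.00558 and 0.016, each with spike scaling. TFDP1 lost its call with DESeq2 size factors (-0.066), reference gene scaling (-0.050), spike scaling (-0.049) and the DESeq2 Wald test (-0.065). The call was also lost with no filter (-0.091), the stricter filter of all 6 samples above background (-0.065) and background subtraction (-0.050). Background subtraction also used reference gene scaling and limma. Without single samples TFDP1 ranged from -0.11 to -0.070. CDK2 passed with the replicate block (-0.19, adjusted p = 0.0421) and without control replicate 3, and ranged from -0.22 to -0.14 without single samples. RB1 ranged from -0.0045 to 0.053 without single samples, below 0 only without control replicate 2. The causes were not tested. All tested genes gave 75 calls, 27 with spike scaling and 60 to 76 without single samples. The other cell cycle genes gave 13 calls, 4 with spike scaling and 7 to 11 without single samples. E2F target transcripts gave 7 calls, all lower, 4 with the DESeq2 Wald test and 1, MYB, with spike scaling. TOP2A was called higher in 7 of the 17 alternatives, with an adjusted p between 0.0175 and 0.686 over all of them. For 16 other genes named from the cell cycle lists, TOP2A left out, 228 of 272 alternative values kept direction and call. The other 44 lost the call, and none turned sign. With the replicate block 80 genes passed, 5 of them members, and some samples correlated best with another number. All 6 within-sample ratios kept their direction in every alternative, and as pairs could not reach a p below 0.25. At these depths counting error was near the replicate spread for E2F1 and CDK2 and above it for E2F3.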
